A study of Mus musculus with 12 samples.

Results

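Immediate early genes are transcribed within minutes of neuronal activity, before any new protein is made. The 10 genes described here are the AP-1 transcription factors Fos, Fosb, Jun, Junb and Jund, the zinc-finger factors Egr1 and Egr3, the synaptic cytoskeletal protein Arc, the activity-dependent bHLH-PAS factor Npas4 and the orphan nuclear receptor Nr4a1. A peak was given to a member when its summit lay in the gene's span in the RefSeq annotation of GRCm38. By that rule 7 of the 10 genes held 48 of the 23413 peaks, at 17 of 13572 sites, a site being peaks of any list that share at least 1 bp.

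N1-methyladenosine (m1A) is a methylated adenosine that carries a positive charge and blocks the base-pairing face, and it is best known from transfer and ribosomal RNA. TET1 belongs to the dioxygenases that oxidise the methyl group of methylcytosine, chiefly in DNA. In the striatum, dopamine and glutamate inputs induce early genes through cAMP and calcium signalling, and their messages are short-lived.

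The material was caudate putamen (the dorsal striatum) of adult male mice, all Tet1 fl/fl, taken 2 weeks after stereotaxic virus injection. The knockout (KO) group, labelled Tet1 delta/delta, received AAV-Cre-EGFP, and the control group, labelled Tet1 fl/fl, received AAV-EGFP. The labels do not name the promoter that drives Cre, and cells the virus did not reach keep the floxed gene. RNA was bulk tissue RNA, so fewer cells of a type and less RNA per cell cannot be told apart. Each group had 3 pull-down libraries, each called against its own input, and nothing says that they came from separate animals, so the p-values rest on library-to-library spread alone, possibly a technical one.

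The KO lists held 3057 to 6947 peaks from 1235247 to 2508102 pull-down tags, and the control lists 3004 to 3444 peaks from 459332 to 1097292 tags, so each KO pull-down was deeper than each control pull-down. Tet1 itself had 0 peaks in each of the 6 lists, so these files give no check of its deletion. Control 1 was called with all duplicate tags kept and had the lowest median pileup, 4, against 17 to 19 in the other 5 lists. Markers of medium spiny neurons, the striatal projection neurons, had a peak for 13 of 15 genes, with 5, 10 and 9 in KO lists and 4, 11 and 10 in control lists. Oligodendrocyte markers had a peak for 5 of 6 genes, cortical excitatory neurons 4 of 6, astrocytes 3 of 6, endothelium 3 of 4 and microglia 2 of 5. Of all protein-coding genes 26.2% had a peak in any list, a share not matched for gene length. A gene with no peak was not called at these depths, which does not show that its RNA lacked m1A.

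The promoters of 4 members are shown because 3 of them, Fos, Jun and Nr4a1, had a peak with its summit in the first 500 bases of the transcript, while Npas4 had none. Each is 300 bases on GRCm38.p6 from RefSeq, read 5′ to 3′ on the gene's strand, with 250 bases before the start site and the first 50 of the transcript. Capitals mark the cAMP response element (CRE) core TGACG and the CRE-like octamer TGACNTCA, on either strand, and a core inside an octamer is counted as both.
Fos, chr12:85473640-85473939, plus strand: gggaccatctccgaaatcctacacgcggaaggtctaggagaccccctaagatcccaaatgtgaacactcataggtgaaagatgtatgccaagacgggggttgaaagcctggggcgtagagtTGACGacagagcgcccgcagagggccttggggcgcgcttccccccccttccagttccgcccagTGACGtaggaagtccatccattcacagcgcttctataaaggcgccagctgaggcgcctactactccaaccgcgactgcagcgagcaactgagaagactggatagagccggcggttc
Jun, chr4:95052173-95052472, minus strand: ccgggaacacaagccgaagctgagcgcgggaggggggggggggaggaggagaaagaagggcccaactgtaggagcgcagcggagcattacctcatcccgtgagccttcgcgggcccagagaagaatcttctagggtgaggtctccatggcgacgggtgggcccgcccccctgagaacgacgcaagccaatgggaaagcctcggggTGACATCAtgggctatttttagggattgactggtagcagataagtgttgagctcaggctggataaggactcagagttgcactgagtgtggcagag
Nr4a1, chr15:101266596-101266895, plus strand: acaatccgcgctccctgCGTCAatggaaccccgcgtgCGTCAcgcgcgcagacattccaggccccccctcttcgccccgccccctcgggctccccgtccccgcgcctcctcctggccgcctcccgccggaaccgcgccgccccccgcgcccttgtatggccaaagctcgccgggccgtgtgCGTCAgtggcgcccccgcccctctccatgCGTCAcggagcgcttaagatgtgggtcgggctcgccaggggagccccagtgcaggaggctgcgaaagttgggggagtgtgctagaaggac
Npas4, chr19:4989922-4990221, minus strand: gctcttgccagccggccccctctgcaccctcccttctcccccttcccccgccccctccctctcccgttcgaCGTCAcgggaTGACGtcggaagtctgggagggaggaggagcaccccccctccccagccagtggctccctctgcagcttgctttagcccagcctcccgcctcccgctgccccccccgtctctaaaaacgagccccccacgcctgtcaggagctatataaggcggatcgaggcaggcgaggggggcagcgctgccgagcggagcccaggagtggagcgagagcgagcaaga

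Of the 7 members with a promoter entry, 5 held the CRE core (Fos, Fosb, Junb, Npas4 and Nr4a1), against 20.8% of 32851 promoters of this length. Fos had 2 copies, beginning at −129 and −66 from the start site, and Nr4a1 had 4. Jun held no core but the octamer, at −45, a motif found in 8.83% of promoters. All motifs were searched on both strands. The AP-1 site TGANTCA (7.81% of promoters) and the CArG box, the binding sequence of serum response factor (1.63%), were in none of the 7 windows. Sequence more than 250 bases before the start was not searched, and Egr1, Egr3 and Arc had no promoter entry. The GC box GGGCGG was in 5 of 7 (35.7% of promoters) and TATAA in 3 of 7 (24.9%). No peak of any list overlapped these 7 windows, so the sequences describe the genes and not the peaks.

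The number of members with a call overlapped between genotypes. A peak was present in 5, 3 and 4 members in KO libraries and in 3, 6 and 4 members in control libraries, means of 4.00 ± 1.00 and 4.33 ± 1.53 (SD, n = 3 each). Among all 21900 protein-coding genes of the annotation, 26.2% had a peak in any list, and 2.30% had one in all 6. Egr1 and Jund were called in all 6 libraries, and Jun and Nr4a1 in 5. Fos, Egr3 and Arc were each called in a single library, and Fosb, Junb and Npas4 in none. By Fisher's exact test, two-sided, on libraries with and without a peak, p was 1 for each of the 7 genes, and 0.1 is the smallest p that 3 libraries against 3 can give.

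**Figure D1:**
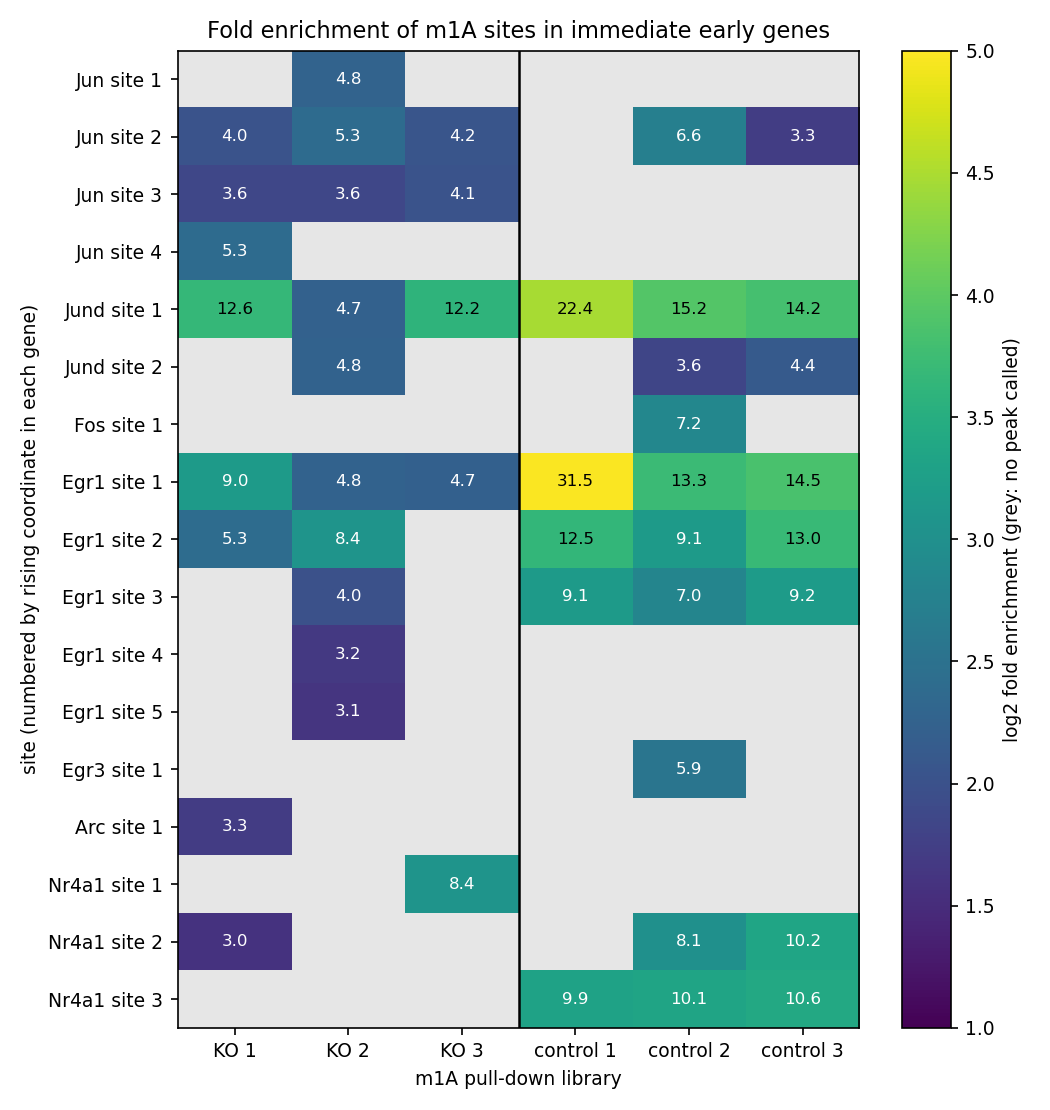
Fold enrichment of each of the 17 sites (rows, numbered by rising coordinate in each gene) in the 3 KO and 3 control libraries (columns). Colour is log2 fold enrichment of the site's strongest peak, the printed figure is the fold itself, and grey marks no call. Egr1 site 1 and Jund site 1 are filled across all 6 columns, Jun site 3 only in the KO columns and Nr4a1 site 3 only in the control columns.

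Of the 17 sites, 2 were called in all 6 lists, where 2.96% of all sites were. A further 8 were called in a single list, as were 69.0% of all sites. Fold enrichment is the pull-down over the local background as the caller gave it, pileup is the tag coverage at the summit, and both are the authors' values for single peaks.

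Jun encodes the AP-1 subunit that pairs with Fos proteins, and every KO library called it. Its peaks numbered 3, 4 and 3 in KO libraries and 0, 1 and 1 in control libraries. Each KO library had more Jun peaks than any control library, means of 3.33 ± 0.577 and 0.667 ± 0.577 (SD, n = 3 each). An exact two-sided permutation test gave p = 0.1, its floor for 3 libraries against 3 (adjusted p = 1 over 6658 genes). In KO 2 and in KO 3, 2 of the peaks lay at 1 site. Each KO pull-down was deeper than each control pull-down, and the part of depth in this count was not tested. Of 5746 protein-coding genes with a peak, 2.45% had more peaks in every KO than in every control library.

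The third Jun site, chr4:95051264-95051738, was the only member site called in all 3 KO lists and no control list, a pattern of 1.41% of all sites. Its summits lay 585 to 879 bases downstream of the start site. KO 1 had 1 broad peak there with a fold of 3.60 and a pileup of 60. KO 2 had a pair of peaks with folds of 3.60 and 2.62 and pileups of 91 and 76, and KO 3 a pair with folds of 4.08 and 3.47 and pileups of 76 and 68. These folds were low for their lists: at most 6.84% of the peaks of the same list had a lower fold, while 94.2% to 97.3% had a lower pileup. Fisher's exact p for the site was 0.1, with an adjusted p of 1 over 13572 sites. Any site called in all 3 KO lists and no control list has that p, so it adds nothing to the pattern. With peaks of at least 4-fold enrichment KO 3 alone called the site. The KO pull-downs were the deeper ones, and the part of depth in this call was not tested.

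The second Jun site, chr4:95050261-95050978, was called in 5 lists, 1436 to 1816 bases downstream of the start. Its fold was 4.05, 5.30 and 4.15 in KO 1, 2 and 3, against 6.64 in control 2 and 3.31 in control 3, and control 1 had no call. The KO folds lay between those of the 2 controls. Pileups were 42, 91 and 54 in KO and 38 and 18 in those controls. The remaining sites were single calls in KO libraries, one in KO 2 at 2146 bases from the start (4.82-fold) and one in KO 1 at 190 bases (5.26-fold).

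Jund, an AP-1 subunit usually expressed at a steady basal level, carried a peak of high coverage. Its first site, chr8:70698944-70699686, was called in all 6 libraries with summits between 1360 and 1384 bases from the annotated start. Fold enrichment was 12.6, 4.71 and 12.2 in KO 1, 2 and 3, against 22.4, 15.2 and 14.2 in controls 1, 2 and 3. Each KO value lay below each control value, and KO 2 stood far below the other KO libraries. Pileup was 108, 83 and 144 in KO and 129, 143 and 121 in control, ranges that overlap, and at least 96.5% of the peaks of each list had a lower pileup.

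The KO minus control difference in mean log2 fold at that Jund site was −0.91 (geometric means 8.98 and 16.9, log2 SD 0.81 and 0.35, n = 3 each). Without KO 2 the difference was −0.45, and without control 1 and KO 2 it was −0.24, so these libraries set much of its size. The second Jund site, chr8:70700184-70700563, was called in KO 2 (4.78-fold) and in controls 2 and 3 (3.58 and 4.37).

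Fos, the partner of Jun proteins in AP-1 and the most used marker of neuronal activation, had 1 peak in 1 list. It lay in control 2 at chr12:85473967-85474171, with its summit 189 bases past the start site, a fold of 7.23 and a pileup of 8. That pileup was low for its list, where 9.0% of peaks had a lower one. Fosb, whose splice form ΔFosB accumulates in striatal neurons after repeated stimulation, had no peak, nor had Junb.

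**Figure D2:**
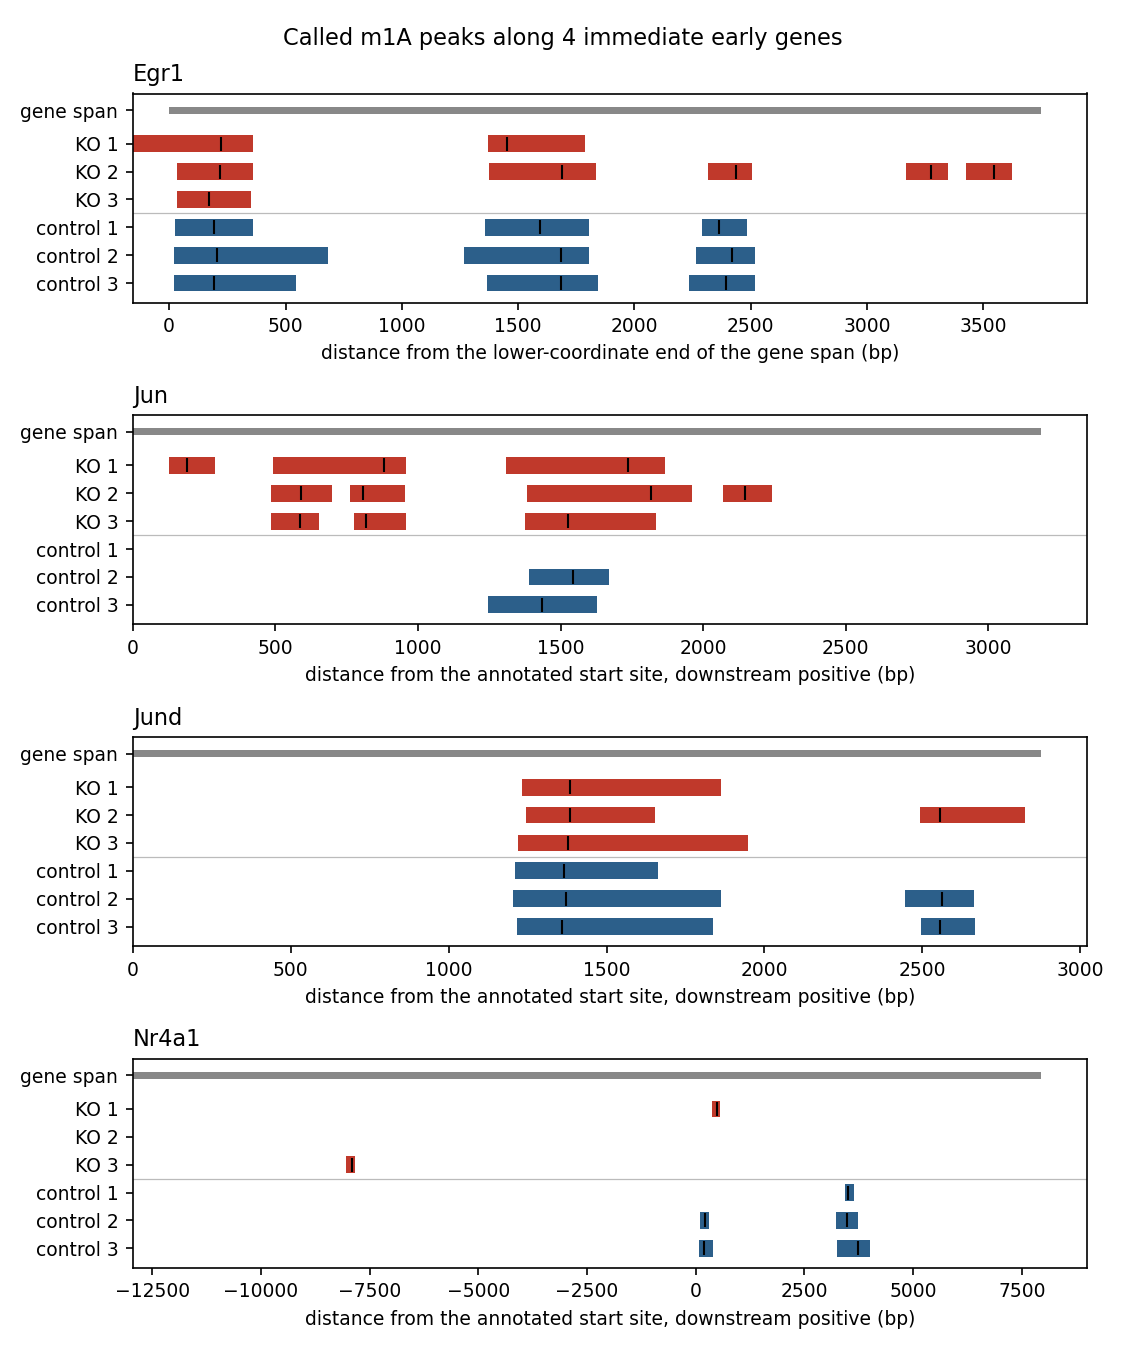
Called peaks (bars, red for KO and blue for control) with their summits (black ticks) along Egr1, Jun, Jund and Nr4a1, with the gene span in grey. The x axis is the distance in bp from the annotated start site, or for Egr1 from the lower-coordinate end of its span. The KO bars of Jun with summits between 585 and 879 bp have no counterpart in control. The control bars of Nr4a1 with summits between 3480 and 3723 bp have none in KO.

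Egr1, also known as Zif268, is an early transcription factor of synaptic plasticity, and it had more peaks than any other member. It had 2, 5 and 1 peaks in KO libraries and 3 in each control library, at 5 sites. RefSeq strand was not in the tables used for Egr1, so its positions are counted from the lower-coordinate end of its span on chromosome 18, 34861207 to 34864956. The first site, from 34861051 to 34861891, was called in all 6 libraries with summits 172 to 222 bases inside that end.

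At the first Egr1 site the fold was 9.03, 4.77 and 4.66 in KO 1, 2 and 3, against 31.5, 13.3 and 14.5 in controls 1, 2 and 3. No KO value reached the lowest control value. Pileups were 44, 52 and 73 in KO and 65, 125 and 104 in control, which overlap through control 1. Within their own lists, 75.2%, 12.3% and 11.1% of peaks had a lower fold in KO 1, 2 and 3, and 99.0%, 90.6% and 93.6% in controls 1, 2 and 3. The KO minus control difference in mean log2 fold was −1.64 (geometric means 5.86 in KO and 18.2 in control, log2 SD 0.54 and 0.69, n = 3 each).

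That difference can be set against the 402 sites called in all 6 lists. Their median difference was −0.16 on the log2 scale, and every KO fold lay below every control fold at 16.2% of them, the reverse at 2.74%. Only 1 of the 402 had a lower value than Egr1, and 29 had a lower value than the Jund site. Without control 1 and KO 2, the Egr1 difference was −1.10 and 29 sites had a lower value, while Jund had 191 sites below it and the median was −0.20. With those libraries left out, every KO fold lay below every control fold at 37.6% of the 402 sites. With pileup divided by the library's tags in place of fold, the Egr1 difference was −1.86 and Jund −1.35, but the median was −0.77. By that measure 16 of the 402 sites had a lower value than Egr1, and 58 a lower value than Jund. On that scale every KO value lay below every control value at 51.2% of the 402 sites, Egr1 and Jund among them. No test was run on these folds, because each was computed within its own list, against its own input.

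**Figure D3:**
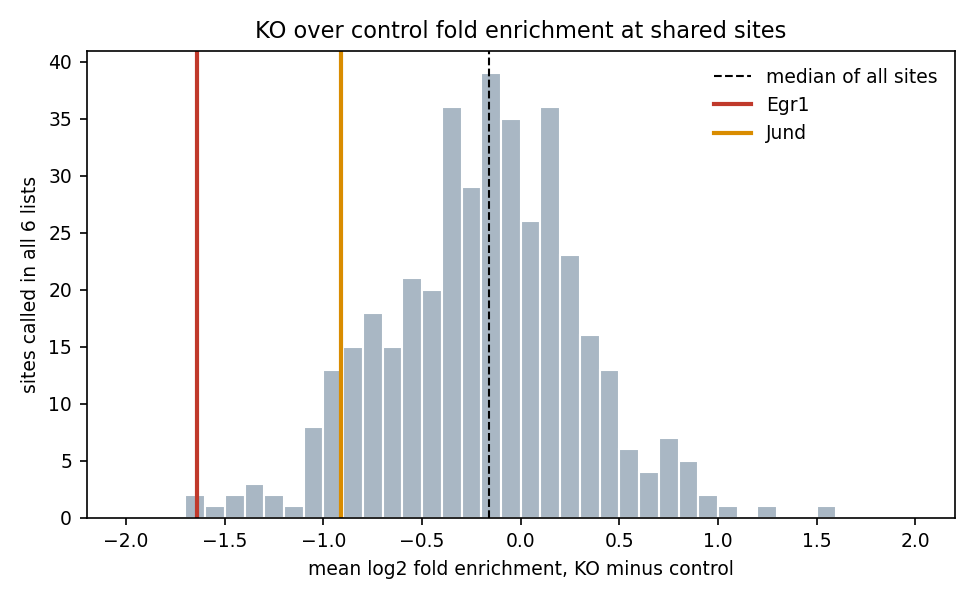
Histogram of the KO minus control difference in mean log2 fold enrichment (x axis) over the 402 sites called in all 6 lists (y axis, number of sites). The dashed line is the median, −0.16. Egr1 at −1.64 stands at the low end, and Jund at −0.91 lies in the lower flank.

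The other Egr1 sites were called less evenly. The second, from 34862474 to 34863052, had folds of 5.30 and 8.39 in KO 1 and 2 and none in KO 3, against 12.5, 9.06 and 13.0 in controls 1, 2 and 3. Both KO values were below each control value, an order not set against other sites that lacked a KO 3 call. The 37.6% given above for the 402 sites was for another set of libraries, KO 1 and 3 against controls 2 and 3. The third, from 34863440 to 34863727, was called in KO 2 alone of the KO lists (3.99-fold), against 9.08, 7.04 and 9.17 in controls 1, 2 and 3 (Fisher's exact p = 0.4, adjusted p = 1 over 13572 sites). The 2 sites nearest the higher-coordinate end were called in KO 2 alone, with pileups of 149 and 99 but folds of 3.18 and 3.08. KO 2 was the deepest pull-down.

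Egr3, an early factor downstream of the same stimuli, had a single peak, in control 2, at chr14:70079534-70079985 (5.89-fold, pileup 37). Arc, which regulates the endocytosis of AMPA receptors and whose message travels into dendrites, also had a single peak, in KO 1, at chr15:74671870-74672176. Its fold of 3.26 was higher than that of 2.27% of the KO 1 peaks and its pileup of 39 higher than that of 85.2%.

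Nr4a1, or Nur77, is a nuclear receptor regulated by dopamine signalling in striatal neurons, and it had 1, 0 and 1 peaks in KO libraries and 1, 2 and 2 in control libraries (exact permutation p = 0.3, adjusted p = 1 over 6658 genes). The third of its sites, chr15:101270083-101270860, was the only member site called in all 3 control lists and no KO list, as were 0.796% of all sites. Folds there were 9.93, 10.1 and 10.6 and pileups 14, 34 and 28 in controls 1, 2 and 3. The summits lay 3480 to 3723 bases past the start site. Fisher's exact p was 0.1, the value that any site with this pattern has, with an adjusted p of 1 over 13572 sites. The calls came from the shallower pull-downs, and the part of depth in this pattern was not tested. The summit of control 3 lay apart from the others: with summits required within 100 bp the 3 control calls no longer formed 1 site.

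The second Nr4a1 site, chr15:101266932-101267402, lay 195 to 481 bases past the start. It had a fold of 3.01 in KO 1, against 8.07 in control 2 and 10.2 in control 3. The KO 1 peak did not overlap that of control 2 and overlapped only the end of that of control 3. A peak of KO 3 lay at −7911 from that start site, inside the span of longer RefSeq models (8.43-fold). Npas4, a factor induced by calcium entry that controls inhibitory synapses, had no peak in any list.

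Among the 29 member peaks with a known start site, 5 (17.2%) had a summit in the first 500 bases, in Fos, Jun and Nr4a1. The comparison was protein-coding genes with 1 start site in the table and a span of at most 20894 bp, the longest of the members. Of their 3581 peaks, 1433 had such a summit. The 17 Egr1 peaks could not be counted, as the gene had no promoter entry. Of these, the 6 at its first site had summits 172 to 222 bases from the lower-coordinate end, which may or may not be its start. The 9 Jund peaks were measured from 1 start site, while RefSeq lists 2 Jund transcripts. The member share therefore cannot show whether member peaks avoid gene starts. Of all 1824 protein-coding genes with a peak and a span up to that length, with or without a start site in the table, 3.95% had 4 or more sites and the median gene had 1. Egr1 had 5 sites and Jun 4. Peaks of 1 gene share its transcript, so they are not replicates.

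Of the 48 member peaks, 38 stood higher in their list by pileup than by fold, against 35.6% of all 23413 peaks. Of those 38, 35 belonged to 3 genes, with 14 of the 17 peaks of Egr1, all 12 of Jun and all 9 of Jund, so the count rests on repeated peaks of a few transcripts. Jun peaks had folds of 2.62 to 6.64 and pileups of 18 to 91. Nr4a1 went the other way, with 1 of its 7 peaks higher by pileup, and so did the Fos peak. The inputs entered only through the caller's background, so transcript level was not measured here.

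**Figure D4:**
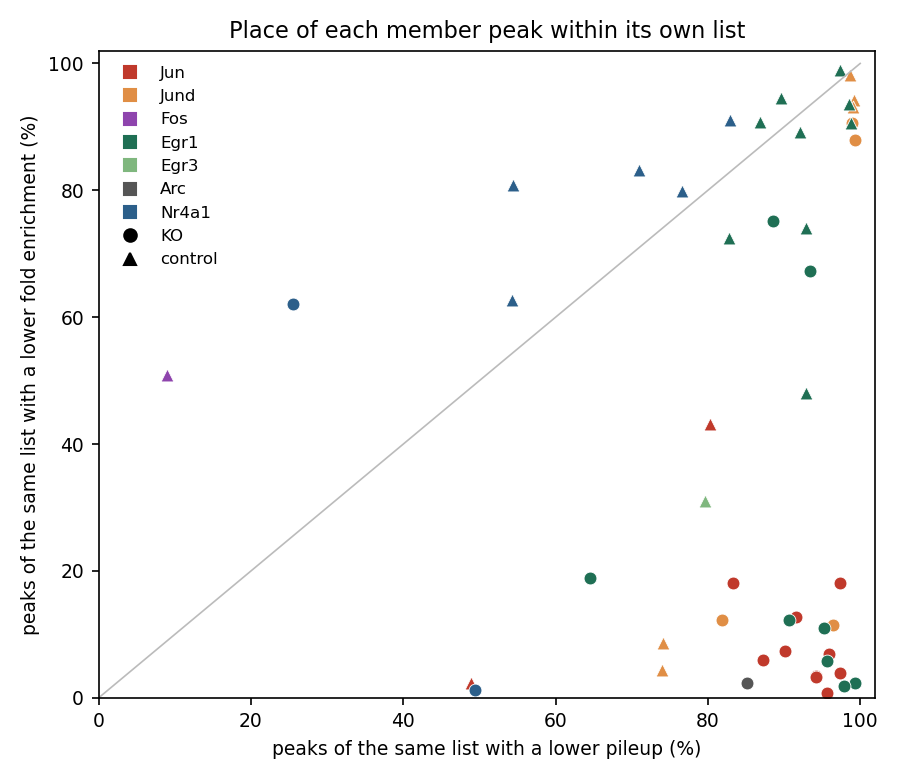
Place of each of the 48 member peaks within its own list: the share of peaks with a lower pileup (x axis, %) against the share with a lower fold enrichment (y axis, %), circles for KO and triangles for control. Points below the diagonal rank higher by pileup, as all 12 Jun points do.

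A wider list of 45 other early response genes had peaks in 16, with 8, 6 and 9 genes in KO libraries and 6, 11 and 6 in control libraries (means 7.67 ± 1.53 and 7.67 ± 2.89, SD, n = 3 each). Of all protein-coding genes 26.2% had a peak in any list. None of the 45 was called in all libraries of one genotype and none of the other. Over all sites, rather than genes, such patterns made up 1.41% for KO alone and 0.796% for control alone. The share over all genes is not given here. Homer1, whose short form is an early gene that uncouples glutamate receptor scaffolds, and Vgf, a neuropeptide precursor, were called in all 6, with strongest folds per library of 8.43 to 14.8 and 3.97 to 11.9. The kinase Plk2 (6.52 to 11.04) and the GTPase Rheb (3.27 to 5.31) were called in the same 5 libraries as Jun. Gadd45g, a growth arrest gene, was called in 3 KO libraries and control 2 (5.36 to 7.53), and the midnolin gene Midn in 2 of each genotype (5.22 to 8.04). Egr4 was called in KO 3 and controls 2 and 3 (8.58 to 10.8), and the AP-1 repressor Jdp2 in KO 1, KO 2 and control 1 (5.46 to 9.01). Of this list and a list of 38 upstream regulators, 7 genes were called in all 6 libraries like Egr1 and Jund, led by fold by Rps6ka2, Map2k1 and Homer1, and 4 in exactly the libraries of Jun, led by Plk2, Arid1a and Srf. No gene of this list or of the upstream regulators was called in exactly the libraries that called Nr4a1.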

How the data were processed

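m1A pull-down and input libraries (6 each, 12 samples) came from caudate putamen. MACS2 2.2.6, HISAT2 2.1.0, cutadapt 2.8 and the build GRCm38 are listed in the submitters' processing notes. Per the file headers, peaks were called per pull-down with that library's input as background, keeping q-values up to 0.01. The deposited lists give, per peak, the pileup (a signal), the fold enrichment (a ratio) and the −log10 of the p-value and q-value, all computed by the authors. Control 1 kept all duplicates, per the file headers, and the other 5 lists at most 1 tag per position. Scripts in Python 3.11.15 (pandas 2.3.3, scipy 1.17.1) placed summits in RefSeq spans (49997 genes of GRCm38.p6), leaving out 2 peaks in more than 3 spans, and merged peaks sharing at least 1 bp. Fisher's exact tests ran over all genes with a peak and all sites with Benjamini-Hochberg adjustment. Merging and tests were tested on simulated data. The permutation test of peaks per gene was added after seeing the data. Named genes were all 10 members, with up to 8 of each wider list taken by libraries called, then by fold. The members and lists were chosen with earlier results of these data known. No genome was used, so exons and peak sequences were not analysed here.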

Additional observations from a re-analysis of the deposited data

How the results depend on the processing

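The 7 member genes with a peak became 5 to 7 when 1 library was left out, and the 17 sites 14 to 18. Egr1 and Jund stayed called in all 6 lists at a −log10 q of at least 5, at a fold of at least 4 and with lists of equal length. The single site called in KO libraries alone, in Jun, became 0 at a fold of at least 4, and 1 to 2 with 1 library left out, since without KO 1 it parts into 2. The single site called in control libraries alone, in Nr4a1, became 2 at a fold of at least 4, where the third Egr1 site joined it. It became 0 with summits within 100 bp, 3 without control 1 and KO 2, and 1 to 2 with 1 library left out. The KO minus control difference in member genes per library, −0.33, was −1 to 0.50 with 1 library left out, turning positive without KO 2 (0.17) or control 2 (0.50). With the libraries paired by number (replicate block) it was −0.33, and the lowest per-gene p was 1. Deviations of same-numbered libraries had correlations of −0.02, −0.02 and −0.01 over sites, and those of differently numbered libraries ran from −0.0002 to 0.02. All were small, so they cannot tell whether the numbers pair the libraries. The log2 fold difference, with alternatives chosen after seeing the data, ran from −1.95 to −1.24 for Egr1 and from −1.16 to −0.45 for Jund with 1 library left out, and it was −0.24 for Jund without control 1 and KO 2. The causes were not tested.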

Other observations

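Of 38 upstream regulators of early gene transcription, 31 had a peak, with 15, 18 and 12 in KO libraries and 13, 20 and 14 in control libraries (means 15.0 ± 3.00 and 15.7 ± 3.79, SD, n = 3 each). Of all protein-coding genes 26.2% had a peak in any list, a share not matched for gene length. None of the 38 was called in all libraries of one genotype and none of the other. Over all sites, rather than genes, those patterns made up 1.41% (KO alone) and 0.796% (control alone). The ribosomal S6 kinase gene Rps6ka2 (9.04 to 23.3, strongest fold per library), the ERK-activating kinase Map2k1 (7.31 to 17.4), the calcium-dependent kinase genes Camk2a (5.95 to 12.8) and Camk2b (4.47 to 10.7) and the calcineurin catalytic subunit Ppp3ca (7.57 to 11.5) were called in all 6. Srf, which binds the CArG boxes of early promoters (4.69 to 9.24), and Arid1a, a chromatin remodelling subunit (5.50 to 11.04), were called in the same 5 libraries as Jun. Rps6ka3 was called in 2 KO and 3 control libraries (7.22 to 9.17).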
